A study of Mus musculus with 6 samples.

Results

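The genes described here encode the noncollagen part of the stromal matrix and its makers: the small leucine-rich proteoglycans, fibronectin and versican, the proteins of elastic fibres and microfibrils, matricellular proteins, enzymes and helper proteins that process collagen, and markers of fibroblasts. They were taken by name, as 48 genes, and 45 of them had at least 1 probe set annotated to that gene alone, out of 18193 such genes on the array. Each gene is given by its brightest probe set, that is the one with the highest mean over the 6 arrays. Loxl2 shared its probe sets with another gene symbol, and Fbn1 and Efemp2 had no probe set under their symbol here, so these 3 were not analysed here.

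As background, fibroblasts of the prostate stroma lay down this matrix between the glands and the smooth muscle. The proteoglycans decorate collagen fibrils and set their thickness, microfibrils form the scaffold on which elastin is deposited, and lysyl hydroxylases and lysyl oxidases prepare collagen for crosslinking. Matricellular proteins such as thrombospondins and tenascins bind the matrix and cell receptors without being its main building blocks. In prostate cancer the stroma around the glands is known to be remodelled, with vimentin-positive fibroblasts and myofibroblasts.

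The OSU-CG5 group was 3 intact male TRAMP mice given the compound by oral gavage at 100 mg/kg per day for 4 weeks, from 6 to 10 weeks of age, and the vehicle group was 3 such mice given vehicle over the same weeks. All 6 were F1 offspring of C57BL/6 TRAMP and FvB parents. The labels call the mice of both groups TRAMP mice, so the vehicle mice are taken to carry the transgene too. TRAMP mice carry the viral T antigens under a probasin promoter, which is active in prostate epithelium and not in the stroma described here. The free-text descriptions of 2 treated samples carry other compound numbers (OSU-CG6, OSU-CG7), while their source and title fields give OSU-CG5. Tissue was the dorsal and lateral prostate lobes, taken about 2 to 4 h after the last dose, with 1 Affymetrix array per mouse, and no array pooled mice as far as the labels say.

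All values are log2 RMA expression values (RMA is a background correction, normalization and probe summary for Affymetrix arrays), so a difference of 1 is a doubling of signal. Levels of different probe sets cannot be set against each other, so only the same gene is compared between arrays. Array medians lay between 5.30 and 5.38. The luminal epithelial gene Pbsn read 13.85 ± 0.04 in OSU-CG5 prostates and 13.67 ± 0.34 in vehicle prostates (log2, SD, n = 3 each), and the stromal genes Dcn and Sparcl1 read above 10 on every array. Pbsn does not stand for the luminal genes, as 6 of the 8 measured had a lower mean with OSU-CG5. The difference of Pbsn, 0.18 with all arrays, was -0.01 without vehicle replicate 2. Vehicle replicate 2 stood apart from the other arrays before any comparison. Its correlations across probe sets with them were 0.966 to 0.981, against 0.987 to 0.995 for every other pair, and its mean over 6 seminal vesicle transcripts was 7.91, against 3.56 to 4.55 in OSU-CG5 prostates and 3.90 and 5.08 in vehicle replicates 1 and 3. Counts over the members and over each list, and the differences of the members given array by array, are therefore also given without that array.

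Upstream sequences are shown for members that the values below turn on: Vim and Bgn, whose brightest probe sets read lower on every OSU-CG5 array than on any vehicle array, and Ogn, which was lowest in vehicle replicate 2. Each is the 250 bases before the RefSeq transcript start (GRCm38.p6, plus strand), 5′ to 3′, with capitals marking, on either strand, the TATA box letters (TATAAA) and the letters of the Sp1 GC box (GGGCGG). The letters of the SMAD-binding element (CAGAC) were searched likewise, and none of the windows shown holds them.
Vim, chr2:13574061-13574310: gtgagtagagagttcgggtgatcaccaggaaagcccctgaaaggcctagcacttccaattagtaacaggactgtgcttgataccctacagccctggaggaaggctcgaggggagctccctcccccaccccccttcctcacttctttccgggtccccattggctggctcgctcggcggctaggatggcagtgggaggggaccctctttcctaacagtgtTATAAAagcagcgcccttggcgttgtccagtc
Bgn, chrX:73483351-73483600: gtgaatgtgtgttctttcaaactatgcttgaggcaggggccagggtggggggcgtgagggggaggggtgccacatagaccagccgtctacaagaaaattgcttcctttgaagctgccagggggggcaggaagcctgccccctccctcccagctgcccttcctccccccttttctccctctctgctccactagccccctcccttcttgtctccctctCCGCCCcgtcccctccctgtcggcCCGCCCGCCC
Ogn, chr13:49607765-49608014: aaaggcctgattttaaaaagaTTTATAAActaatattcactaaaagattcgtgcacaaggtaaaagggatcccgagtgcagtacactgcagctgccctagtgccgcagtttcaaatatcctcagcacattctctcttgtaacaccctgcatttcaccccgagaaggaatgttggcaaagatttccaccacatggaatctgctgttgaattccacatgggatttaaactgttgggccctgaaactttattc

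The Vim window holds the TATA letters, with their first base at position -32 from the start, and no match to the other motifs. The Bgn window holds no TATA letters and 3 matches to the GC box, a pair of which overlap. The Ogn window holds 2 overlapping matches to the TATA letters, near the far end of the window from the start. Over the 41 windows of the 31 members in the RefSeq promoter table, 9 (22%) held the TATA letters, 22 (53.7%) the GC box and 20 (48.8%) the SMAD-binding element. Of all 32851 windows in that table the shares were 12.4%, 32.7% and 42.2%. A match is a run of letters and not a site shown to be bound, and these shares were not tested.

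The comparison asked whether OSU-CG5 altered transcripts of this matrix in the dorsolateral prostate. Most members read lower with OSU-CG5, by less than 1.5-fold for nearly all, and none passed the adjusted threshold. Of the 45 members 39 (86.7%) had a difference below 0 (OSU-CG5 minus vehicle), where 65.7% of all genes did, and the median log2 difference was -0.33, against -0.09 over all genes. In limma's test over all 45037 probe sets, 0 (0.0%) passed 0.05 after Benjamini-Hochberg adjustment, and Vim had the smallest adjusted value of a member, 0.151. Before adjustment 7399 probe sets (16.4%) had a limma p below 0.05 in either direction, which is called nominally lower or higher from here on. Among the members 15 (33.3%) were nominally lower and 1 (2.22%) was nominally higher, beside 8.43% and 5.4% of all genes. Groups did not overlap for 15 members that read lower and 1 that read higher, beside 14.2% and 8.1% of all genes. Among the 26 members with a mean of at least log2 6, 8 (30.8%) were nominally lower, beside 7.17% of genes that bright (5.69% in a fit of bright probe sets alone), and among the 19 dimmer members 7 (36.8%) were, beside 9.85%. Below 0 were 22 (84.6%) of these brighter members, beside 53.4% of genes that bright, and 17 (89.5%) of the dimmer ones, beside 79.4%. Only Vim and Efemp1 reached 1.5-fold, a size that 2.41% of all genes reached.

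These counts moved with single arrays. Without vehicle replicate 2, 41 members (91.1%) were below 0 beside 60.4% of all genes, the median was -0.24 beside -0.05, and 10 (22.2%) were nominally lower and 1 higher, beside 6.58% and 6.07% of all genes. In that fit 400 probe sets (0.888%) passed the adjusted threshold and 0 of them stood for a member. Without OSU-CG5 replicate 2 the count of lower members was 6, beside 5.33% of all genes, and without OSU-CG5 replicate 3 it was also 6, beside 4.16%. The count was 19 without OSU-CG5 replicate 1, beside 6.62% of all genes. It was 14 when vehicle replicate 1 was left out, beside 7.84%, and also 14 when vehicle replicate 3 was, beside 11.7%. With all arrays and no moderation of the variances the count was 7, beside 7.24% of all genes. Past the adjusted threshold were 1.97% of probe sets without vehicle replicate 3 and 1.83% with array quality weights, and Vim, with weights, was the one member whose brightest probe set was among them. In tissue RNA, fewer stromal cells and less RNA of these genes per cell cannot be told apart.

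**Figure D1:**
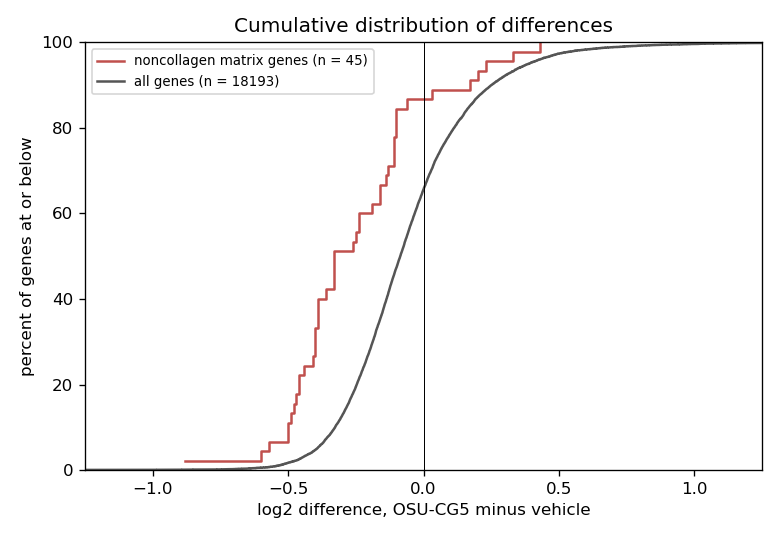
Cumulative percent of genes (vertical axis) at or below each log2 difference, OSU-CG5 minus vehicle (horizontal axis), for the 45 noncollagen matrix genes and all 18193 genes. The curve of the matrix genes lies to the left over most of its length, with 86.7% of them below 0 and a median of -0.33, against 65.7% and -0.09 for all genes.

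**Figure D2:**
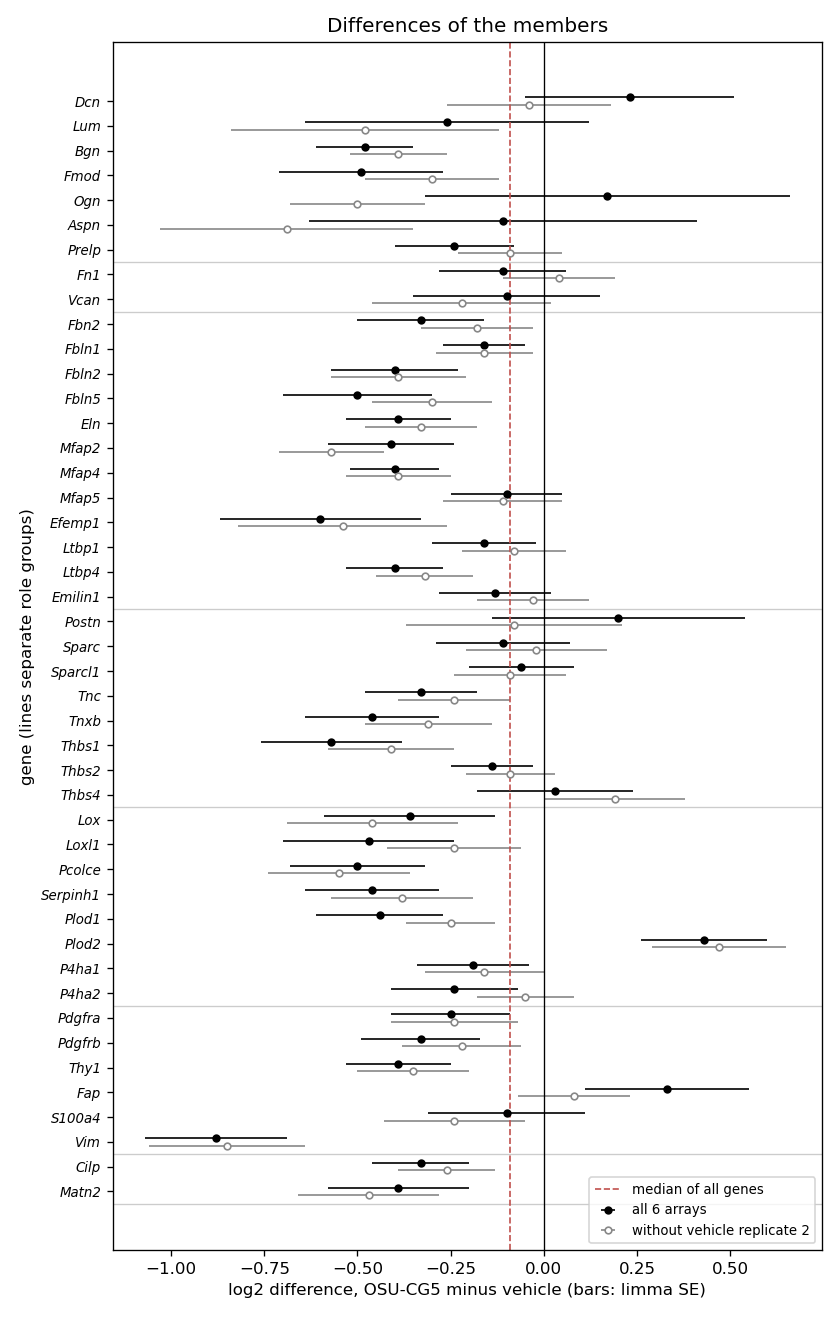
Log2 difference of each member, OSU-CG5 minus vehicle, with limma's standard error as bars, in role groups from proteoglycans at the top to Cilp and Matn2 at the bottom. Filled points use all 6 arrays, open points leave out vehicle replicate 2, and the dashed line is the median of all genes (-0.09); Dcn, Ogn and Postn move from above 0 to below 0 without that array, and Fn1 from below to above.

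Markers of fibroblasts held the member with the largest difference. Of 6, 5 were below 0 and 2 were nominally lower, beside 65.7% and 8.43% of all genes, and the median log2 difference was -0.29. Without vehicle replicate 2 these were 5, 2 and -0.24, and 60.4% and 6.58% of all genes were below 0 and nominally lower. Vim encodes vimentin, the intermediate filament protein of mesenchymal cells in general and not of fibroblasts alone. It read 9.45, 8.91 and 8.95 in OSU-CG5 prostates, against 9.69, 10.04 and 10.23 in vehicle prostates. Every OSU-CG5 array lay below every vehicle array, a log2 difference of -0.88 (SE 0.19), or 1.84-fold lower (limma adjusted p = 0.151). The identifier of this probe set ends in _x_at, which marks probes that may bind related transcripts, and the other probe sets of Vim differed by -0.77 (SE 0.29) and -0.60 (SE 0.23). In both of these the groups overlapped, with OSU-CG5 replicate 1 above vehicle replicate 1 (8.12 against 7.84, and 7.91 against 7.82). Without vehicle replicate 2 the difference was -0.85 (SE 0.21).

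Thy1, a surface glycoprotein of fibroblasts and also of T cells and neurons, read 6.60, 6.57 and 6.32 in OSU-CG5 prostates, against 6.69, 6.97 and 7.01 in vehicle prostates. The groups did not overlap, and the difference was -0.39 (SE 0.14; limma adjusted p = 0.241), or -0.35 without vehicle replicate 2. Pdgfrb, the PDGF receptor of pericytes and fibroblasts, read 5.31, 5.39 and 5.64 in OSU-CG5 prostates, against 5.83, 6.00 and 5.50 in vehicle prostates. Here OSU-CG5 replicate 3 lay above vehicle replicate 3, and the difference was -0.33 (SE 0.16), or -0.22 without vehicle replicate 2. A second, dimmer probe set of Pdgfrb differed by -0.81 (SE 0.20; limma adjusted p = 0.164). Pdgfra, the related receptor of interstitial fibroblasts, read 8.86, 8.49 and 8.37 in OSU-CG5 prostates, against 8.96, 8.85 and 8.68 in vehicle prostates. These ranges overlapped through OSU-CG5 replicate 1, with a difference of -0.25 (SE 0.16), or -0.24 without vehicle replicate 2, and its other probe sets differed by -0.47 (SE 0.24) and -0.16 (SE 0.13). S100a4, a calcium-binding protein of fibroblasts and myeloid cells, differed by -0.10 (SE 0.21). Fap, a protease of activated fibroblasts, differed by 0.33 (SE 0.22), and by 0.08 without vehicle replicate 2, in which it was lowest at 4.47.

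The small leucine-rich proteoglycans did not lie together on one side of 0. Of 7, 5 were below 0 with all arrays and 7 without vehicle replicate 2, beside 65.7% and 60.4% of all genes. The median was -0.24 and -0.39 in these fits. Nominally 1 was lower with all arrays and 2 were without that array, beside 8.43% and 6.58% of all genes. Bgn encodes biglycan, a fibril-binding proteoglycan. It read 7.71, 7.61 and 7.46 in OSU-CG5 prostates, against 7.93, 8.25 and 8.03 in vehicle prostates. Its groups did not overlap, and the difference was -0.48 (SE 0.13; limma adjusted p = 0.183), or -0.39 without vehicle replicate 2. The other probe sets of Bgn differed by -0.57 (SE 0.14) and -0.27 (SE 0.11). Fmod, fibromodulin, read 7.39, 6.91 and 6.97 in OSU-CG5 prostates, against 7.59, 7.98 and 7.19 in vehicle prostates. OSU-CG5 replicate 1 lay above vehicle replicate 3, and the difference of -0.49 (SE 0.22) was -0.30 without vehicle replicate 2. All 6 probe sets of Fmod, 5 of them of the _x_at kind, were below 0, from -0.49 to -0.07. Prelp, a proteoglycan that anchors basement membranes to the matrix beneath, read 6.37, 6.11 and 6.04 in OSU-CG5 prostates, against 6.26, 6.70 and 6.28 in vehicle prostates. Its difference was -0.24 (SE 0.16), and -0.09 without vehicle replicate 2, while its other probe set differed by -0.46 (SE 0.14).

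Decorin, lumican, osteoglycin and asporin, proteoglycans of the same family, varied more between mice than between groups. Dcn read 12.72, 11.99 and 11.97 in OSU-CG5 prostates, against 12.40, 11.46 and 12.15 in vehicle prostates, a difference of 0.23 (SE 0.28; limma adjusted p = 0.701), which was -0.04 without vehicle replicate 2. Its other probe set differed by 0.33 (SE 0.23). The values of Ogn, Aspn and Lum are given because their spread, seen in the data, was wide. Ogn read 9.97, 9.41 and 9.40 in OSU-CG5 prostates, against 10.10, 8.09 and 10.09 in vehicle prostates. Vehicle replicate 2 was about 2 log2 units below the other vehicle mice, so the difference of 0.17 (SE 0.49) was -0.50 (SE 0.18; limma adjusted p = 0.230) without it. Aspn read 6.76, 5.37 and 5.65 in OSU-CG5 prostates, against 6.35, 4.87 and 6.88 in vehicle prostates, and its difference was -0.11 (SE 0.52) with all arrays and -0.69 (SE 0.34) without vehicle replicate 2. Lum read 8.90, 7.67 and 7.37 in OSU-CG5 prostates, against 8.58, 7.78 and 8.35 in vehicle prostates, a difference of -0.26 (SE 0.38), or -0.48 without vehicle replicate 2. The other probe sets of Ogn and Aspn differed by 0.32 (SE 0.54) and -0.37 (SE 0.48) with all arrays. In OSU-CG5 prostates replicate 1 was the highest of the 3 for all 4 of these genes.

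**Figure D3:**
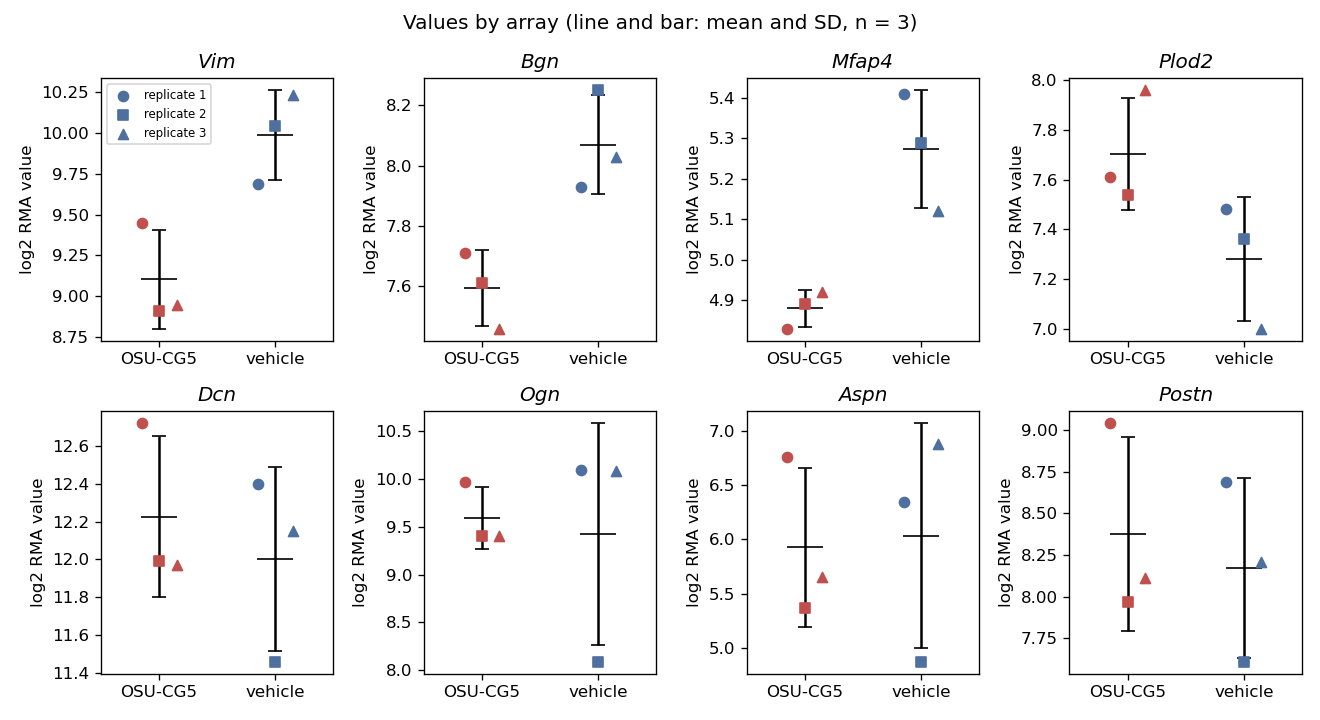
Log2 RMA values of 8 members, each by its brightest probe set, on each array, OSU-CG5 left and vehicle right. Line and bar give the mean and SD of 3 arrays, and the marker shape gives the replicate. Vim, Bgn and Mfap4 read lower and Plod2 higher on every OSU-CG5 array than on any vehicle array, while Dcn, Ogn, Aspn and Postn were lowest in vehicle replicate 2 (square).

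Elastic fibre and microfibril proteins formed the largest set, and all 12 measured lay between -0.60 and -0.10 (median -0.39). Below 0 were 65.7% of all genes, and 79.4% of genes with a mean under log2 6, as most of the 12 had. Nominally 6 were lower and 0 higher, and 6 read lower without overlap between groups. Of all genes 8.43% were nominally lower (9.85% of those with a mean under log2 6) and 14.2% lower without overlap. Without vehicle replicate 2 all 12 remained below 0, beside 60.4% of all genes. Their median was then -0.31 and 3 were nominally lower, beside 6.58%. Mfap4, a microfibril-associated glycoprotein, read 4.83, 4.89 and 4.92 in OSU-CG5 prostates, against 5.41, 5.29 and 5.12 in vehicle prostates. The groups did not overlap, and the difference was -0.40 (SE 0.12; limma adjusted p = 0.203), and -0.39 without vehicle replicate 2. Ltbp4, which tethers latent TGF-beta to microfibrils, read 5.61, 5.46 and 5.60 in OSU-CG5 prostates, against 6.00, 6.10 and 5.76 in vehicle prostates, again without overlap. Its difference was -0.40 (SE 0.13; limma adjusted p = 0.220), or -0.32 without vehicle replicate 2. Mfap4, Ltbp4 and Efemp1 had 1 probe set each.

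Eln encodes elastin itself and read 6.69, 6.31 and 6.34 in OSU-CG5 prostates, against 6.69, 6.94 and 6.85 in vehicle prostates. OSU-CG5 replicate 1 and vehicle replicate 1 had the same value at 2 decimals, and the difference was -0.39 (SE 0.14; limma adjusted p = 0.252), or -0.33 without vehicle replicate 2. The other probe set of Eln differed by -0.11 (SE 0.12). Fbln5, a fibulin needed for elastic fibre assembly in mice, read 5.88, 5.69 and 5.40 in OSU-CG5 prostates, against 5.94, 6.55 and 5.99 in vehicle prostates. The groups did not overlap, with a difference of -0.50 (SE 0.20), and of -0.30 without vehicle replicate 2. The other probe set of Fbln5 differed by 0.01 (SE 0.12), so its probe sets disagreed. Efemp1, also named fibulin-3, read 8.98, 8.13 and 7.91 in OSU-CG5 prostates, against 9.12, 9.05 and 8.63 in vehicle prostates. OSU-CG5 replicate 1 lay among the vehicle arrays, and the difference of -0.60 (SE 0.27; limma adjusted p = 0.316) ranged from -0.92 to -0.38 as each array was left out, with -0.54 without vehicle replicate 2. Mfap2, by an _x_at probe set, and Fbln2 differed by -0.41 (SE 0.17) and -0.40 (SE 0.17), and Fbn2, a fibrillin, by -0.33 (SE 0.17). Fbln1, Ltbp1, Emilin1 and Mfap5 lay between -0.16 and -0.10. The second probe sets of Fbln2 and Fbn2 differed by 0.11 (SE 0.13) and 0.00 (SE 0.18), against their first ones, and that of Mfap2 by -0.21 (SE 0.13). Those of Mfap5, Fbln1, Emilin1 and Ltbp1 differed by -0.39 (SE 0.15), -0.27 (SE 0.15), -0.26 (SE 0.15) and -0.10 (SE 0.12), and the dimmest ones of Fbln1 and Ltbp1 by -0.18 (SE 0.14) and 0.21 (SE 0.13).

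Enzymes and helper proteins that process collagen lay on both sides of 0. Of 8, 7 were below 0, beside 65.7% of all genes, with a median of -0.40. Nominally 3 were lower and 1 was higher, beside 8.43% and 5.4% of all genes. Without vehicle replicate 2 the median was -0.24 and 7 were below 0, beside 60.4%. In that fit 1 was nominally lower and 1 nominally higher, beside 6.58% and 6.07%. Pcolce, which enhances the cleavage of procollagen at its C-terminal end, read 8.13, 7.72 and 7.78 in OSU-CG5 prostates, against 8.17, 8.28 and 8.69 in vehicle prostates. The groups did not overlap, and the difference was -0.50 (SE 0.18; limma adjusted p = 0.235), or -0.55 without vehicle replicate 2. Its other probe set differed by -0.23 (SE 0.15). Serpinh1, the collagen chaperone of the endoplasmic reticulum, read 6.53, 6.25 and 5.85 in OSU-CG5 prostates, against 6.68, 6.82 and 6.5 in vehicle prostates. OSU-CG5 replicate 1 lay just above vehicle replicate 3, and the difference was -0.46 (SE 0.18) from an _x_at probe set, or -0.38 without vehicle replicate 2, and -0.48 (SE 0.36) from its other probe set.

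Among lysyl hydroxylases, Plod1 and Plod2 lay on opposite sides of 0. Plod1 read 5.40, 5.40 and 5.41 in OSU-CG5 prostates, against 5.72, 6.24 and 5.59 in vehicle prostates. Its groups did not overlap, and the difference of -0.44 (SE 0.17; limma adjusted p = 0.265) was -0.25 without vehicle replicate 2, and its other probe set differed by -0.20 (SE 0.12). Plod2, which hydroxylates the collagen telopeptides, read 7.61, 7.54 and 7.96 in OSU-CG5 prostates, against 7.48, 7.36 and 7.0 in vehicle prostates. It was the member whose OSU-CG5 arrays all lay above the vehicle arrays, with a difference of 0.43 (SE 0.17; limma adjusted p = 0.272) and of 0.47 without vehicle replicate 2. Its other probe set differed by -0.03 (SE 0.13), so the probe sets of Plod2 disagreed. Lox and Loxl1, lysyl oxidases that crosslink collagen and elastin, differed by -0.36 (SE 0.23) and -0.47 (SE 0.23), and the prolyl hydroxylase subunits P4ha1 and P4ha2 by -0.19 (SE 0.15) and -0.24 (SE 0.17). Further probe sets differed by -0.06 (SE 0.20) and 0.12 (SE 0.13) for Lox, by -0.19 (SE 0.12) for Loxl1 and by 0.27 (SE 0.13), on the other side of 0, for P4ha1.

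Matricellular proteins had a median of -0.12, close to that of all genes (-0.09), with 6 of 8 below 0 and 2 nominally lower, beside 65.7% and 8.43% of all genes. Their median was -0.09 without vehicle replicate 2, with 7 below 0 and 1 nominally lower, beside 60.4% and 6.58% of all genes. Thbs1, thrombospondin-1, an activator of latent TGF-beta and inhibitor of vessel growth, read 3.14, 3.65 and 3.64 in OSU-CG5 prostates, against 3.96, 4.36 and 3.82 in vehicle prostates. The groups did not overlap, with a difference of -0.57 (SE 0.19; limma adjusted p = 0.226), and of -0.41 without vehicle replicate 2, and its other probe set differed by -0.32 (SE 0.14). With a mean of 3.76 its brightest probe set was the one of the 45 below log2 4, so it has no value under the filters on dim probe sets. Tnxb, a tenascin of connective tissue, read 5.82, 5.58 and 5.28 in OSU-CG5 prostates, against 5.87, 6.32 and 5.86 in vehicle prostates. Its groups did not overlap either, with a difference of -0.46 (SE 0.18), or -0.31 without vehicle replicate 2.

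Tnc, the tenascin of remodelled stroma, read 4.22, 4.00 and 4.30 in OSU-CG5 prostates, against 4.56, 4.70 and 4.26 in vehicle prostates, a difference of -0.33 (SE 0.15) with overlap, or -0.24 without vehicle replicate 2, and its other probe set differed by -0.12 (SE 0.11). Thbs2 read 4.84, 4.87 and 4.90 in OSU-CG5 prostates, against 5.01, 5.11 and 4.91 in vehicle prostates, and its non-overlapping groups differed by -0.14 (SE 0.11), or -0.09 without vehicle replicate 2, with -0.15 (SE 0.15) and 0.04 (SE 0.13) from its other probe sets. Sparcl1, a secreted relative of Sparc that is found in vessels and stroma, read 10.59, 10.30 and 10.15 in OSU-CG5 prostates, against 10.44, 10.34 and 10.42 in vehicle prostates. The difference of Sparcl1 was -0.06 (SE 0.14), or -0.09 without vehicle replicate 2. Sparc differed by -0.11 (SE 0.18), and by -0.32 (SE 0.18) and -0.16 (SE 0.17) in its other probe sets. Thbs4 differed by 0.03 (SE 0.21). Postn, periostin, differed by 0.20 (SE 0.34), and by -0.08 without vehicle replicate 2, where it was lowest at 7.61.

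Fibronectin and versican, large adhesive components of the interstitial matrix, differed by less than their standard errors with all arrays in their brightest probe sets. Fn1 read 8.81, 8.50 and 8.38 in OSU-CG5 prostates, against 8.56, 8.97 and 8.48 in vehicle prostates, a difference of -0.11 (SE 0.17), and of 0.04 without vehicle replicate 2. The other, dimmer probe set of Fn1 differed by 0.22 (SE 0.12), without overlap between groups. Vcan read 5.53, 4.83 and 4.59 in OSU-CG5 prostates, against 5.04, 4.83 and 5.37 in vehicle prostates, a difference of -0.10 (SE 0.25), or -0.22 without vehicle replicate 2. Its 8 probe sets ran from -0.20 (SE 0.12) to 0.37 (SE 0.13), and in the dimmer probe sets at both ends of this range the groups did not overlap. Cilp, a matrix protein first known from cartilage, and Matn2, a matrilin, both read lower. Cilp read 8.21, 8.02 and 7.96 in OSU-CG5 prostates, against 8.27, 8.51 and 8.38 in vehicle prostates, without overlap and with a difference of -0.33 (SE 0.13; limma adjusted p = 0.265), or -0.26 without vehicle replicate 2. Matn2 read 8.48, 8.18 and 7.77 in OSU-CG5 prostates, against 8.52, 8.39 and 8.70 in vehicle prostates, with overlap and a difference of -0.39 (SE 0.19), or -0.47 without vehicle replicate 2, while its other probe set differed by -0.07 (SE 0.17).

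The members differed between mice of a group by more than most genes did. The median SD over the members was 0.23 in OSU-CG5 prostates and 0.26 in vehicle prostates, against 0.13 and 0.18 over all genes (log2, n = 3 each). For the leucine-rich proteoglycans it was 0.33 in OSU-CG5 prostates and 0.41 in vehicle prostates. OSU-CG5 replicate 1 was the highest of the OSU-CG5 arrays for 32 of the 45 members (71.1%), as it was for 36.7% of all genes. OSU-CG5 replicate 3 was the lowest of all 6 arrays for 21 members (46.7%), beside 15.9% of all genes. Vehicle replicate 2 was the highest of all 6 for 20 members (44.4%), beside 38.4% of all genes, and the lowest for 5 (11.1%), beside 15.1%. These 5 were Dcn, Ogn, Aspn, Postn and Fap. The mean over all members was 6.91, 6.63 and 6.56 in OSU-CG5 prostates, against 6.98, 6.95 and 6.92 in vehicle prostates, so OSU-CG5 replicate 1 was close to the vehicle mice and the other OSU-CG5 mice were lower.

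**Figure D4:**
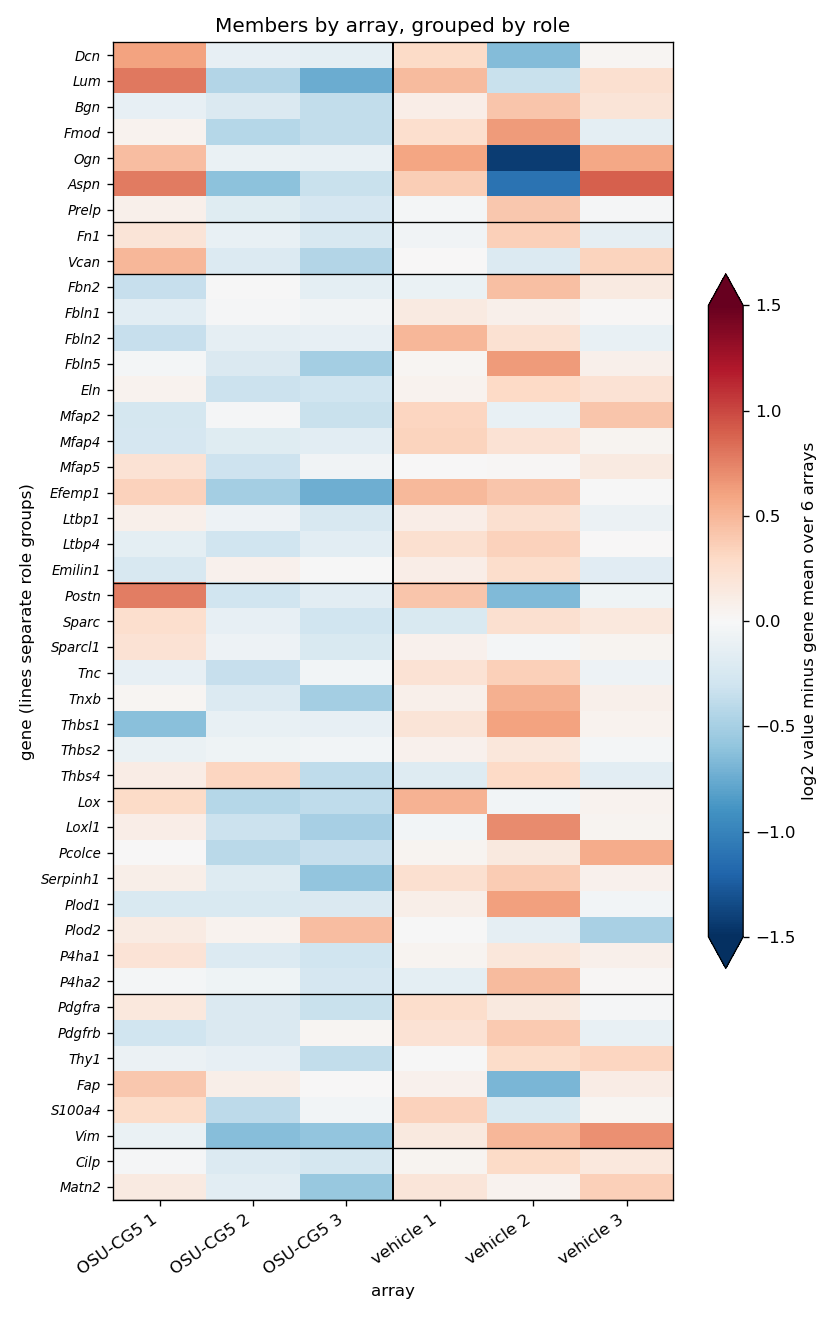
Heat map of the 45 members (rows, in role groups) on the 6 arrays (columns, OSU-CG5 left), coloured by the log2 value minus the gene's own mean over the 6 arrays. OSU-CG5 replicates 2 and 3 are mostly blue (lower), OSU-CG5 replicate 1 is red for Dcn, Lum, Aspn and Postn, and vehicle replicate 2 is dark blue for Ogn and Aspn.

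Further probe sets of the members were taken as a check. Of 32 members with more than 1 probe set, the second brightest had the sign of the brightest for 26, with a median of -0.19. Among these second probe sets 5 were nominally lower and 0 higher, beside 6.61% lower and 8.56% higher over all second probe sets. Of all 50 further probe sets of the members 39 had the sign of the brightest, with a median of -0.16. Of these 50, 8 were nominally lower and 1, of Vcan, was nominally higher. The lower ones include both further probe sets of Bgn and of Vim, genes already counted as lower by their brightest ones. The matching shares over all genes were not computed, so no excess can be read from these counts.

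Other matrix genes were taken from lists that excluded the members. Over all genes 65.7% were below 0, 8.43% nominally lower and 5.4% nominally higher, and without vehicle replicate 2 these shares were 60.4%, 6.58% and 6.07%. The 42 measured noncollagen matrix genes outside the set had a median of -0.17, with 36 (85.7%) below 0, and 9 (21.4%) were nominally lower and 0 higher. Leaving out vehicle replicate 2, the median was -0.15, 32 (76.2%) were below 0 and 5 (11.9%) were nominally lower. Dpt, dermatopontin, a decorin-binding matrix protein, read 9.19, 8.44 and 8.12 in OSU-CG5 prostates, against 9.63, 9.20 and 9.71 in vehicle prostates. Its groups did not overlap, with a difference of -0.93 (SE 0.27; limma adjusted p = 0.189), and of -1.08 without vehicle replicate 2. Ccn3, a matricellular growth regulator, and Chad, chondroadherin, differed by -0.49 (SE 0.14) and -0.58 (SE 0.17). For 15 further collagen-processing genes the median of -0.10 was close to that of all genes (-0.09), 11 (73.3%) lay below 0 and 3 were nominally lower, namely Pcolce2 at -0.76 (SE 0.22), P3h2 at -0.36 (SE 0.11) and Plod3 at -0.34 (SE 0.15). Their median without vehicle replicate 2 was -0.03, with 8 (53.3%) below 0 and 2 nominally lower.

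Among 8 fibrillar and type VI collagen chains 7 were below 0, with a median of -0.38, and nominally 4 (50%) were lower and 1 higher, beside 8.43% and 5.4% of all genes. In the fit without vehicle replicate 2, 7 were below 0, the median was -0.33, and nominally 3 (37.5%) were lower and 1 higher. Col6a2 differed by -0.80 (SE 0.16), Col6a1 by -0.55 (SE 0.17) and Col5a1 by -0.43 (SE 0.12). The higher one, named after its value was seen, was Col6a3 at 0.58 (SE 0.20). TGF-beta signalling induces many matrix genes in fibroblasts. Its 11 measured ligands, receptors and targets had a median of -0.08, with 7 (63.6%) below 0, and nominally 0 were lower and 1 higher in limma, where 0 also passed the adjusted threshold. That gene was Skil, a repressor of Smad signalling, at 0.44 (SE 0.15). The receptors Tgfbr2 and Tgfbr1 differed by -0.32 (SE 0.18) and 0.32 (SE 0.19), and without vehicle replicate 2 by -0.15 and 0.11. In that fit the median of these 11 genes was 0.03, with 5 below 0.

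Markers of other cell types were read on the same arrays, and none passed the adjusted threshold. Their counts stand beside 65.7% of all genes below 0 and 8.43% nominally lower, or 60.4% and 6.58% without vehicle replicate 2. With all arrays, 79.4% of genes with a mean under log2 6 were below 0, and most endothelial and skeletal muscle markers were that dim. Smooth muscle markers were below 0 for 9 of 10, 4 of them nominally lower, with overlapping list means of 9.20 to 9.47 in OSU-CG5 prostates, against 9.42 to 9.66 in vehicle prostates. Endothelial markers were below 0 for 10 of 10, 6 of them nominally lower, with list means of 4.86 to 4.98 in OSU-CG5 prostates, against 5.11 to 5.44 in vehicle prostates. For macrophage markers these were 9 of 10 and 4, with means of 6.47 to 6.73 in OSU-CG5 prostates, against 6.76 to 7.23 in vehicle prostates. For skeletal muscle markers they were 8 of 8 and 6, with means of 4.70 to 5.37 in OSU-CG5 prostates, against 5.51 to 6.19 in vehicle prostates. Luminal epithelial markers were below 0 for 6 of 8 and 0 were nominally lower, with overlapping means of 10.79 to 10.96 in OSU-CG5 prostates, against 10.92 to 11.22 in vehicle prostates. Basal epithelial markers were below 0 for 3 of 4, with 1 nominally lower and overlapping means of 5.64 to 6.11 in OSU-CG5 prostates, against 5.92 to 6.05 in vehicle prostates. With vehicle replicate 2 left out, 9 smooth muscle markers were below 0 and 3 nominally lower, and their median was -0.16, against -0.20 with all arrays. Endothelial markers then had 9 below 0, 4 nominally lower and a median of -0.25, against -0.33 with all arrays. For macrophage markers these were 9, 3 and -0.23, against a median of -0.35 with all arrays, and for skeletal muscle markers 8, 5 and -0.43, against a median of -0.61. Luminal markers had 5 below 0, 0 nominally lower and a median of -0.04, against -0.15 with all arrays, and basal markers 3, 1 and -0.08, against a median of -0.10. Seminal vesicle markers were below 0 for 6 of 6, with 0 nominally lower and a median of -1.56, which was -0.39 without vehicle replicate 2. The part of these lists in the differences of the matrix genes was not tested.

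**Figure D5:**
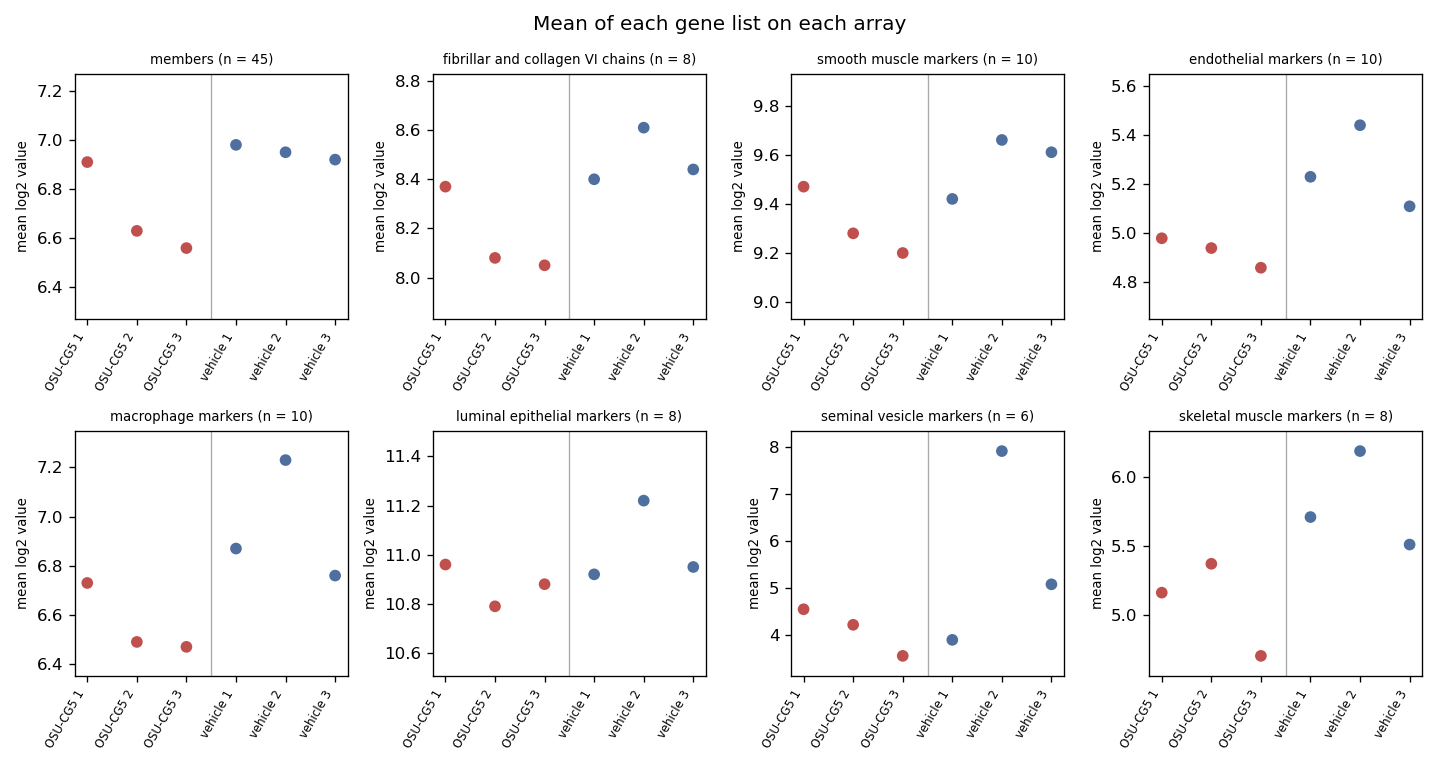
Mean log2 value of each gene list (vertical axis, own scale in each panel) on each array, OSU-CG5 left and vehicle right. The member mean is 6.91 in OSU-CG5 replicate 1, 6.63 and 6.56 in the other OSU-CG5 mice and 6.92 to 6.98 in vehicle mice, and the seminal vesicle mean is 7.91 in vehicle replicate 2.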

How the data were processed

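Per the labels' protocols, biotin-labelled cRNA was made from total RNA of the dorsal and lateral prostate lobes and hybridised to Affymetrix arrays. The authors deposited log2 values, 1 per probe set and array, computed with RMA per the submitters' processing notes; which software ran it is not stated there. RMA fits all arrays together and partly removes a broad shift in 1 direction. Groups follow the source label. The labels give no batch. Whether mice of a group shared litters is not given.

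Of 45101 probe sets 64 controls were removed, and 34945 of the remaining 45037 had a single symbol in the platform's annotation, 932 several and 9160 none. All 45 members' gene numbers were in the RefSeq table under the same symbol. Differences were fitted with lmFit and eBayes of limma 3.58.1 in R 4.3.3 as OSU-CG5 minus vehicle over all 45037 probe sets without a filter, with Benjamini-Hochberg adjustment at 0.05; SE is limma's moderated standard error. The fit was tested on simulated data. Alternatives were filters on dim probe sets, other scalings and variance models, array weights, other probe set rules, and leaving out each array. Values on each array are given for the 4 members of each role group with the smallest unadjusted p and the member with the highest mean, and beyond that rule for Ogn, Aspn and Lum. Members, lists and tests were chosen with earlier results of these data known. The number of arrays, 3 per group, limits the precision.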

Additional observations from a re-analysis of the deposited data

How the results depend on the processing

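The median of the members stayed below 0 under every alternative run, from -0.37 to -0.21 as each array was left out, -0.33 to -0.25 with other filters, scalings, variance models and weights, -0.24 with the mean over a gene's probe sets and -0.19 with the second brightest one. The median of all genes ran from -0.11 to -0.02. The 39 members below 0 were 34 to 43 as each array was left out, 22 of the 26 with a mean of at least log2 6 (beside 53.4% of genes that bright), and 25 of 32 with second probe sets. Of all genes 65.7% were below 0 and 5.4% nominally higher with all arrays, and 60.4% and 6.07% without vehicle replicate 2. For the other arrays left out these shares were not computed. The 15 nominally lower members were 6 to 19 as each array was left out (6 without OSU-CG5 replicate 2 or 3), 8 with a mean of at least log2 6, where fewer genes were tested, 7 without moderation and 5 with second probe sets. The shares of all genes nominally lower in these fits are given above. The higher one was 0 to 1 as each array was left out (0 without OSU-CG5 replicate 1, OSU-CG5 replicate 3 or vehicle replicate 3), and 0 with repeated quantile normalization, without moderation, with the mean over probe sets and with second probe sets. The cause was not tested.

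Probe sets past the adjusted threshold were 822 with array quality weights and 0 to 885 as each array was left out, with 400 without vehicle replicate 2 and 885 without vehicle replicate 3. Vim was the only member to pass in any of these fits (-0.89, limma adjusted p = 0.0397 with array weights). Differences near 0 changed sign: Dcn was -0.10 with array weights, -0.02 without OSU-CG5 replicate 1 and -0.04 without vehicle replicate 2, Fn1 was 0.04 without vehicle replicate 2, Vcan was 0.10 without OSU-CG5 replicate 3 and 0.04 without vehicle replicate 3, and Sparcl1 was 0.04 without OSU-CG5 replicate 3. As each array was left out Dcn ran from -0.04 to 0.43, Fn1 from -0.23 to 0.04, Vcan from -0.37 to 0.10 and Sparcl1 from -0.18 to 0.04. No paired analysis was possible because the replicate numbers only name the mice. With 3 arrays per group, differences of this size lay near the spread between mice.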
